A study of Mus musculus with 6 samples.

Results

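A set of 9 genes of pericellular proteolysis, listed by name, was followed in mouse submandibular salivary gland organoids (mSGOs): *Mmp9*, *Mmp10*, *Mmp13* and *Mmp14*, *Plau*, *Plaur* and *Plat*, and *Timp1* and *Timp3*. The set was chosen with earlier results of these data known, and all 9 genes are described whatever their values. They are 9 of the 47643 gene IDs counted, and 8 of them had a count in enough libraries to be tested, the exception being *Mmp13*. The organoids were grown from submandibular gland cells of untreated, non-irradiated female C57BL/6 mice of 8 to 12 weeks. They were kept in Matrigel, a basement membrane extract, in a medium with EGF, FGF2, insulin, dexamethasone, a ROCK inhibitor and conditioned media holding Wnt3a and R-spondin1. Both groups shared this culture, and they differed in the day of collection: 3 libraries from day 5 and 3 from day 7, with libraries of the same number from the same mouse. Reads came from the 3′ ends of polyadenylated transcripts, so that levels of different genes can be set side by side without a correction for transcript length.

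Matrix metalloproteinases cut collagens, laminins and other matrix proteins and are made as inactive precursors. Plasminogen activators cut plasminogen to plasmin, which digests fibrin and can activate some of these precursors, and the urokinase receptor holds urokinase at the cell surface. Tissue inhibitors of metalloproteinases bind the active enzymes and block them. In epithelia this system is known for its part in branching, wound closure and cell migration.

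Total counts in genes were 1918198 to 2837397 per library, and a count of 0 allows up to 3 counts, or 1.06 to 1.56 counts per 1000000 (CPM), where only counting error is covered. This limit is taken on the unscaled totals, whereas the CPM of genes are taken on scaled ones. The day 7 libraries lay further apart than those of day 5, with a biological coefficient of variation of 0.290 against 0.0900. Reads that were assigned to no gene made up 13.7% to 14.4% of the day 5 and 9.12% to 9.74% of the day 7 libraries, and mitochondrially encoded protein genes took 2.60% to 2.72% and 0.924% to 2.26% of counts. The part of these differences in the results was not tested. Since the samples are bulk cultures, fewer cells of a type and less RNA per cell cannot be told apart. The p-values set a difference against the spread between the cultures of these 3 mice within a day. The fit takes the same spread for both days and draws each gene's value towards that of other genes. All 10 epithelial markers examined had counts, with a summed level of 15694 to 19636 CPM at day 5 and 12961 to 17735 CPM at day 7, most of it in the basal keratins *Krt5* and *Krt14*. Of these markers *Krt19* rose from 53.1 ± 5.27 to 183 ± 32.8 CPM and *Krt8* fell from 109 ± 12.2 to 69.2 ± 8.76 CPM (mean ± SD of 3 libraries, edgeR adjusted p = 1.56e-05 and 0.0374), and the part of such differences in the values of the 9 genes was not tested.

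Across both days, *Timp3* and *Mmp14* made up 87.0% to 92.5% of the counts of the 9 genes. *Timp1*, *Plau* and *Plaur* were counted at lower levels in every library, and *Plat*, *Mmp9*, *Mmp10* and *Mmp13* were at or near the limit of detection at day 5. Of the 8 genes tested, 1 was past the threshold at day 7 against day 5 (an edgeR adjusted p below 0.05 with a log2 change beyond 0.6 in size), the rise of *Plat*. Over all 15792 genes tested the share past it was 12.0% in either direction, 7.22% for higher and 4.82% for lower genes, so that 1 of 8 is near the background. With library totals as the only scaling the genes past it split into 950 higher and 1008 lower, against 1140 and 761 with TMM. An unadjusted p below 0.05 was found for 4 of the 8, against 25.8% of all genes tested. The median log2 fold change was 0.30 over the 8 genes and -0.01 over all genes. Since the members were chosen with earlier results of these data known, such shares, here and below, are descriptions.

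The order of mean levels at day 5 was *Timp3*, *Mmp14*, *Timp1*, *Plau*, *Plaur*, *Plat*, *Mmp10*, *Mmp9* and *Mmp13*. The ranges of *Plat*, *Mmp10* and *Mmp9* overlapped at day 5, whereas the neighbours from *Timp3* down to *Plat* did not overlap. At day 7 *Plau* stood before *Timp1* and *Mmp9* before *Mmp10*. There *Plau* and *Timp1* overlapped, as did *Plaur* and *Plat*, *Plat* and *Mmp9*, and *Mmp10* and *Mmp13*.

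**Figure D1:**
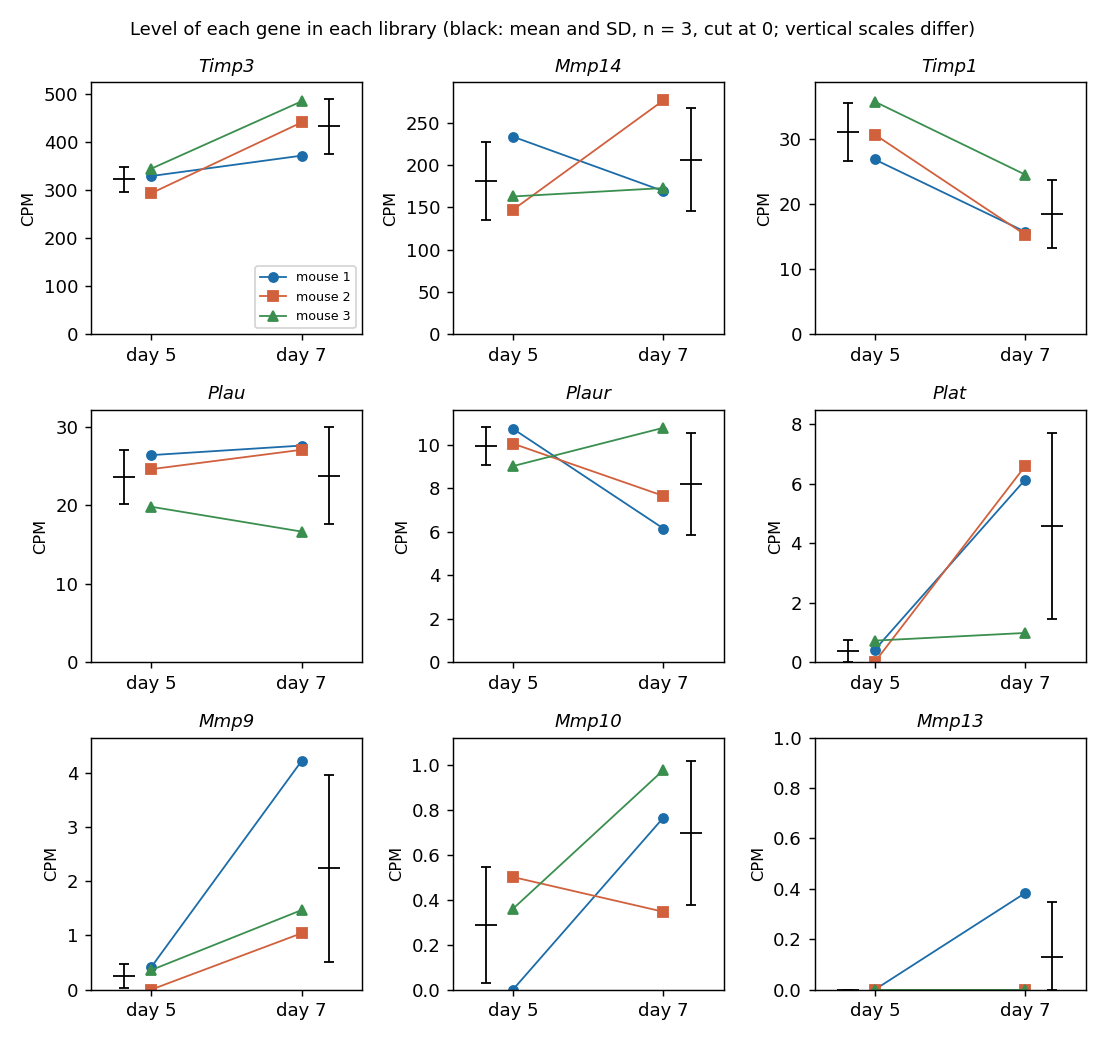
Level in CPM (vertical axes, linear and of different scale) of each gene at day 5 and day 7, with a line joining the libraries of a mouse and the mean ± SD of 3 libraries in black, cut at 0. *Timp3* and *Timp1* move in opposite directions in all 3 mice, and *Plat* stands higher at day 7 in mice 1 and 2 but is close to its day 5 value in mouse 3.

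Stretches before the annotated starts are shown for the members found in the RefSeq promoter table (6 of 9, build GRCm38.p6, plus strand), to set the letters before the most counted members beside those before the least counted. *Mmp9*, *Plau* and *Plat* had no entry. The 30 bases of *Plaur* hold no marked letters. Capitals mark TGANTCA (the core that AP-1 factors are known to bind), TATAAA or GGGCGG, the last read on either strand, and each line ends at the base before the start in that table. In the annotation used for names, an exon of the same gene reaches into the 250 bases before this start for *Mmp14*, *Plaur*, *Timp1* and *Timp3*. Only short stretches of these are shown, and both these stretches and the 250 bases counted below may hold exonic bases. The first lines are 100 bases of *Mmp10* (chr9:7502242-7502341) and *Mmp13* (chr9:7272414-7272513). The others are 30 bases of *Mmp14* (chr14:54431568-54431597), *Timp3* (chr10:86300382-86300411), *Timp1* (chrX:20870136-20870165) and *Plaur* (chr7:24462453-24462482).
Mmp10: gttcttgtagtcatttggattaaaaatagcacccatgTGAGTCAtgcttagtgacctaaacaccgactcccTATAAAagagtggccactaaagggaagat
Mmp13: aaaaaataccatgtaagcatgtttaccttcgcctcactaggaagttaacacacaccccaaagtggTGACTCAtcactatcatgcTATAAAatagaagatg
Mmp14: ggagggcattgGGGCGGGGGCGGaggagag
Timp3: cggtccgggccggctCCGCCCtgtcgcccc
Timp1: atctttgggtttatcctggggcCCGCCCct
Plaur: tcacaaaactgtcttcttcccctcggtcag

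In the 250 bases before the start, *Mmp10* and *Mmp13*, the least counted members, each held 1 TGANTCA and 1 TATAAA and no GGGCGG. *Plaur* held 1 TGANTCA, which begins 69 bases before the start, and 3 GGGCGG, which begin 111, 105 and 100 bases before it, the last of them sharing a base with its neighbour. *Mmp14*, *Timp1* and *Timp3* held GGGCGG but neither of the other motifs. Over all 32851 entries of the table, 6.75% held TGANTCA, 7.59% TATAAA on the sense strand and 32.7% GGGCGG on either strand in the same window. The content of G and C was 37.2% for *Mmp10*, 40.4% for *Mmp13*, 54.4% for *Timp1*, 55.2% for *Mmp14*, 59.6% for *Plaur* and 65.6% for *Timp3*, against a median of 52.4% over all entries. It did not follow the order of the levels, since *Plaur* had more than *Mmp14*. These matches are descriptions of letters, chosen for display after the levels were seen, and 6 promoters allow no test.

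The membrane-anchored metalloproteinase *Mmp14* (ENSMUSG00000000957, GRCm39 chromosome 14, 54668878 to 54682821) is known as an activator of the *Mmp2* product at the cell surface. It had 233, 147 and 163 CPM at day 5 and 169, 276 and 173 CPM at day 7 in mice 1, 2 and 3. The days overlapped, and day 7 was lower in mouse 1, higher in mouse 2 and little different in mouse 3 (within-mouse differences of -0.46, 0.90 and 0.09 in log2 of CPM + 1). The fitted log2 change was 0.19 ± 0.23 (SE, edgeR adjusted p = 0.656), with a 95% interval of -0.29 to 0.67. Without day 7 replicate 2 it was -0.084. *Mmp2* itself had 2 counts at day 5 and 1 at day 7.

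The secreted metalloproteinases were scarce. *Mmp9*, a gelatinase (ENSMUSG00000017737, chromosome 2, 164780439 to 164797771), had 1, 0 and 1 counts at day 5 and 11, 3 and 3 at day 7 in mice 1, 2 and 3, so that the days did not overlap. On the log2 scale *Mmp9* differed by 2.82 ± 0.96 (SE, edgeR adjusted p = 0.0623), which missed the threshold, and the ratio of summed counts per total was 7.63 (95% counting interval 1.81 to 68.1). It passed with no filter on low counts (edgeR adjusted p = 0.0350) and without day 7 replicate 3 (3.01, 0.0416), against 0.0350 to 0.159 over the alternatives with all libraries that could test it. Without day 7 replicate 1, which holds 11 of the 17 counts of day 7, the log2 change was 1.96 (edgeR adjusted p = 0.252).

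*Mmp10*, a stromelysin (ENSMUSG00000047562, chromosome 9, 7502353 to 7510241), had 0, 1 and 1 counts at day 5 and 2, 1 and 2 at day 7. The ratio was 2.24 with a counting interval of 0.367 to 23.6, and no difference was detectable at this depth (edgeR adjusted p = 0.577). *Mmp13*, a collagenase (ENSMUSG00000050578, chromosome 9, 7272514 to 7283331), had 1 count, in mouse 1 at day 7, and was not tested.

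**Figure D2:**
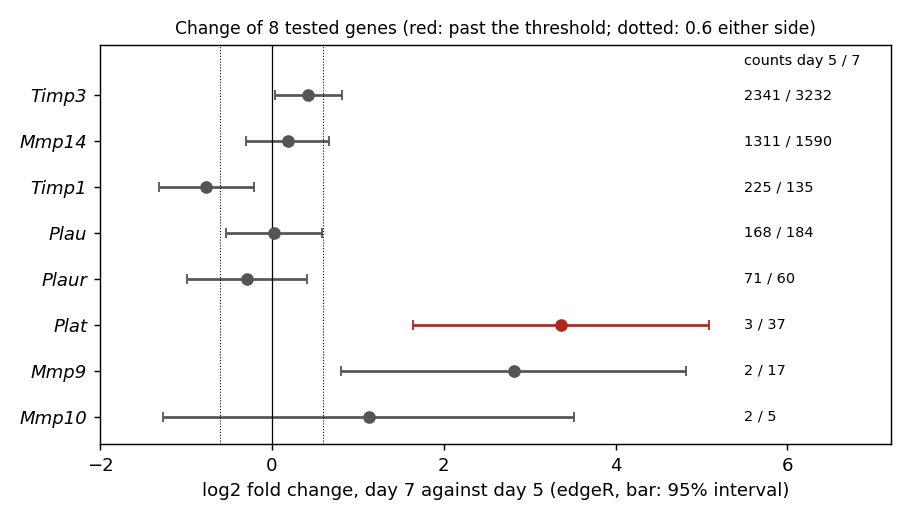
Log2 fold change at day 7 against day 5 (horizontal axis) of the 8 genes tested, with the 95% interval of the edgeR fit and the summed counts of 3 libraries per day at the right. The intervals of *Plau* and *Plaur* span 0, that of *Mmp10* reaches from -1.26 to 3.52, and *Plat*, in red, is past the threshold.

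Urokinase, the product of *Plau* (ENSMUSG00000021822, chromosome 14, 20886722 to 20893453), was the activator with the most counts. *Plau* had 26.4, 24.6 and 19.8 CPM at day 5 and 27.6, 27.1 and 16.6 CPM at day 7 in mice 1, 2 and 3. Mouse 3 was lowest on both days, and the days overlapped. The fitted log2 change was 0.03 ± 0.27 (SE, edgeR adjusted p = 0.990), and its 95% interval, -0.53 to 0.58, lay inside the minimum change of 0.6 on either side.

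Its receptor *Plaur* (ENSMUSG00000046223, chromosome 7, 24161875 to 24175394) had 10.7, 10.0 and 9.01 CPM at day 5 and 6.14, 7.64 and 10.8 CPM at day 7. It was lower at day 7 in mice 1 and 2 and higher in mouse 3. The fitted log2 change was -0.29 ± 0.33 (SE, edgeR adjusted p = 0.627), with a 95% interval of -0.99 to 0.41.

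*Plat*, which encodes tissue plasminogen activator (ENSMUSG00000031538, chromosome 8, 23247709 to 23272871), rose. It had 1, 0 and 2 counts at day 5 and 16, 19 and 2 at day 7 in mice 1, 2 and 3, which is 0.412, 0 and 0.721 CPM against 6.14, 6.596 and 0.979 CPM. The days did not overlap, but mouse 3 had 2 counts on both days. On the log2 scale the rise was 3.37 ± 0.82 (SE, edgeR adjusted p = 0.0106), and the ratio of summed counts per total was 11.1 (95% counting interval 3.50 to 56.1). The call was lost without day 5 replicate 1 (3.37, edgeR adjusted p = 0.0605), day 5 replicate 2 (2.94, 0.0720) or day 7 replicate 2 (3.02, 0.0802), and filterByExpr, which removes genes with few counts, did not keep the gene. With all libraries the adjusted p ran from 0.000144 to 0.0397 over the alternatives that could test it (edgeR, DESeq2 and limma). At day 7 *Plau* had 4.5, 4.11 and 17 reads per *Plat* read in mice 1, 2 and 3, so that it remained the more counted activator.

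*Timp3* (ENSMUSG00000020044, chromosome 10, 86136236 to 86185371), an inhibitor that binds to the matrix and also blocks some ADAM proteases, had the highest level of the 9 genes in every library. It had 330, 294 and 345 CPM at day 5 and 372, 441 and 485 CPM at day 7 in mice 1, 2 and 3. All 3 day 7 values lay above those of day 5, with within-mouse differences of 0.17, 0.59 and 0.49 in log2 of CPM + 1. The fitted log2 change was 0.42 ± 0.19 (SE, 95% interval 0.03 to 0.81) and missed the threshold (edgeR adjusted p = 0.153).

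*Timp1*, a secreted inhibitor (ENSMUSG00000001131, chromosome X, 20736316 to 20740976), stood lower at day 7 in all 3 mice. It had 26.8, 30.6 and 35.7 CPM at day 5 and 15.7, 15.3 and 24.5 CPM at day 7 in mice 1, 2 and 3, without overlap. On the log2 scale the difference was -0.76 ± 0.26 (SE, 95% interval -1.32 to -0.21), which missed the threshold (edgeR adjusted p = 0.0682). When the mouse was fitted as a block it passed (-0.76, adjusted p = 0.0406 by edgeR), as it was with library totals only as scaling (-0.86, 0.0406), with no filter (-0.76, 0.0489) and without day 7 replicate 3 (-1.004, 0.00530), against 0.0406 to 0.518 over the alternatives with all libraries.

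*Timp3* and *Timp1* were then set against each other within a library, a ratio chosen after the values were seen and given with no test. There were 12.3, 9.59 and 9.67 *Timp3* reads per *Timp1* read at day 5 and 23.7, 28.9 and 19.8 at day 7 in mice 1, 2 and 3. The lowest day 7 ratio was above the highest of day 5. This follows from the values above, as every day 7 value was higher for *Timp3* and lower for *Timp1*, and it is no further result. Such a ratio does not depend on the scaling between libraries. *Timp3* reads per *Mmp14* read overlapped between the days (1.41 to 2.12 on day 5, 1.60 to 2.81 on day 7). The values of 4 of the 8 tested genes did not overlap between the days (*Mmp9*, *Plat*, *Timp1* and *Timp3*), where 30.9% of all genes tested did not. For *Plat* and *Mmp9* this rests on few counts. In mouse 3 *Plat* had 2 counts on both days, and *Mmp9* had 1 at day 5 and 3 at day 7.

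**Figure D3:**
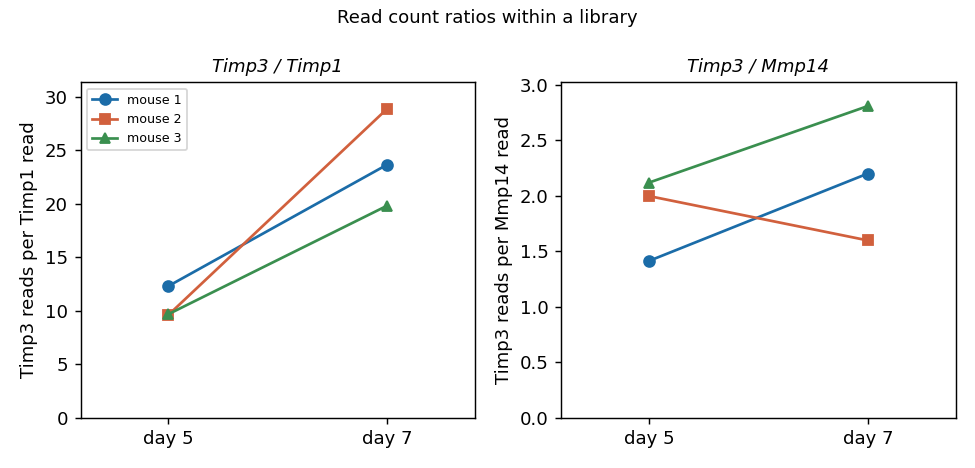
Reads of *Timp3* per read of *Timp1* (left) and of *Mmp14* (right) in each library, with a line per mouse and vertical axes from 0. The left ratio is 19.8 to 28.9 at day 7 against 9.59 to 12.3 at day 5, and the right ratio overlaps between the days.

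The other genes of the system were taken from 6 lists, of which 59 genes were tested and 8 were higher and 2 lower at day 7, where the background over all genes was 12.0% (7.22% for rises, 4.82% for falls). Single libraries moved this count of 10: it was 4 without any 1 of the day 5 libraries, 5 without day 7 replicate 2 and 17 without day 7 replicate 1.

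Of 19 other metalloproteinases, 10 were tested and 1 was past the threshold, *Mmp15*, a membrane-anchored enzyme. It had 7.84, 11.0 and 12.2 CPM at day 5 and 13.8, 26.0 and 21.5 CPM at day 7, which on the log2 scale is 0.98 ± 0.31 higher (SE, edgeR adjusted p = 0.0473). No other gene of that list had a mean of 10 CPM. *Mmp15* missed the threshold without any 1 of the day 5 libraries (0.80 to 1.12) or day 7 replicate 2 (0.75). With all libraries its adjusted p ran from 0.0172 to 0.327 over the alternatives. There it missed the threshold with upper quartile scaling, library totals only and filterByExpr (edgeR adjusted p = 0.0572, 0.0758 and 0.0551). The same held by DESeq2 (0.0856), limma voom (0.0826) and glmTreat, which tests against a minimum change (0.327). *Mmp11*, next in mean level, had 8 counts at day 5 and 13 at day 7 (log2 change 0.62, edgeR adjusted p = 0.648), and 4 of the 19 had none in any library.

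Of the other inhibitors of metalloproteinases only *Timp2* was tested. It had 310, 305 and 295 CPM at day 5 and 382, 362 and 611 CPM at day 7, all 3 higher, and missed the threshold (0.57, edgeR adjusted p = 0.0850). It passed without day 7 replicate 1 (0.68, edgeR adjusted p = 0.0254), and without day 7 replicate 3, its highest library, the log2 change was 0.30 (edgeR adjusted p = 0.135). *Timp4* had 1 count.

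Of 10 other genes of the plasminogen system described here, 6 were tested and 1 rose, *Serpine2*, which encodes an inhibitor of thrombin and of plasminogen activators. It had 104, 85.4 and 110 CPM at day 5 and 129, 155 and 253 CPM at day 7 in mice 1, 2 and 3, without overlap (0.84 ± 0.23 SE on the log2 scale, edgeR adjusted p = 0.0235). *Serpine2* missed the threshold without any 1 of the day 5 libraries (0.75 to 0.92) or day 7 replicate 3 (0.51). With all libraries it missed it by limma voom (adjusted p = 0.0533) and by glmTreat (0.380). Over the alternatives with all libraries its adjusted p ran from 0.00142 to 0.380 (edgeR, DESeq2 and limma). *Anxa2* and *S100a10*, whose products form a complex that binds plasminogen at the cell surface, were the most counted genes of this list. *Anxa2* had 992, 1295 and 1319 CPM at day 5 and 1538, 1342 and 2009 CPM at day 7 and missed the threshold, though the days did not overlap (0.44, edgeR adjusted p = 0.181). *S100a10* overlapped between the days, with 335 to 378 and 354 to 408 CPM (0.07, edgeR adjusted p = 0.854, and -0.022 with library totals only). *Serpinb2*, an inhibitor of urokinase, overlapped as well, from 28.9 to 173 CPM at day 7 (-0.23, edgeR adjusted p = 0.761). Plasminogen itself, *Plg*, had a count of 0 in all 6 libraries.

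Of the ADAM and ADAMTS proteases 13 were tested, 2 rose and 1 fell. *Adam28* went from 1.79 ± 0.870 to 10.1 ± 4.66 CPM (mean ± SD of 3 libraries), or by 2.48 on the log2 scale, and was past the threshold in all 6 fits without 1 library. *Adamts9* had 1 count at day 5 and 15 at day 7 (edgeR adjusted p = 0.0383). It missed the threshold when the mouse was fitted as a block (adjusted p = 0.0752 by edgeR) and with glmTreat (0.0994). The same held without any 1 of the day 5 libraries (log2 change 2.88 to 5.39) or without day 7 replicate 1 or 2 (3.31 and 3.65). DESeq2 and filterByExpr gave no adjusted p for *Adamts9*. Over the other alternatives with all libraries the adjusted p ran from 0.0206 to 0.0994 (edgeR and limma). *Adam12* went from 69.6 ± 1.62 to 37.8 ± 4.73 CPM (-0.88, edgeR adjusted p = 0.00852), and missed it without day 5 replicate 2 (-0.86) or 3 (-0.88), and with glmTreat (adjusted p = 0.280).

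Among pericellular serine proteases, convertases and their inhibitors 14 were tested and 2 were past the threshold, both rises. *Tmprss11e*, a membrane-anchored serine protease of squamous epithelia, went from 11.1 ± 0.789 to 69.0 ± 33.5 CPM, or by 2.64 ± 0.34 on the log2 scale (SE, edgeR adjusted p = 5.27e-05), and was past the threshold in all 6 fits without 1 library. *Prss22* had 10.7 to 16.9 CPM at day 5 and 32.6, 73.3 and 9.79 CPM at day 7 (1.49, edgeR adjusted p = 0.0394). It missed the threshold without any 1 of the day 5 libraries (1.32 to 1.66) or day 7 replicate 2 (0.63), and with all libraries it missed it by limma voom, the robust setting of edgeR, filterByExpr and glmTreat, which tests against a minimum change (adjusted p from 4.88e-06 to 0.272 over all alternatives).

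Basement membrane components, substrates of several of these enzymes, gave 2 rises and 1 fall among 15 genes tested. *Col4a5*, a type IV collagen chain, went from 12.8 ± 2.96 to 39.2 ± 2.90 CPM, or by 1.60 on the log2 scale (edgeR adjusted p = 0.000459), and was past the threshold in all 6 fits without 1 library. *Col4a6* went from 2 to 27 counts (3.46, edgeR adjusted p = 0.0207) and missed it without day 5 replicate 1 (2.95), day 5 replicate 2 (3.06) or day 7 replicate 2 (2.78). With all libraries it missed it by DESeq2 (adjusted p = 0.0533) and glmTreat (0.0578), over a range from 0.00116 among the alternatives that could test it. *Nid1*, which links laminin to type IV collagen, fell from 33.0 ± 12.3 to 16.2 ± 1.94 CPM (-1.04, edgeR adjusted p = 0.0222), and missed it without day 5 replicate 1 (-0.69) or 3 (-1.15) or day 7 replicate 2 (-0.95), and with glmTreat (adjusted p = 0.226).

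**Figure D4:**
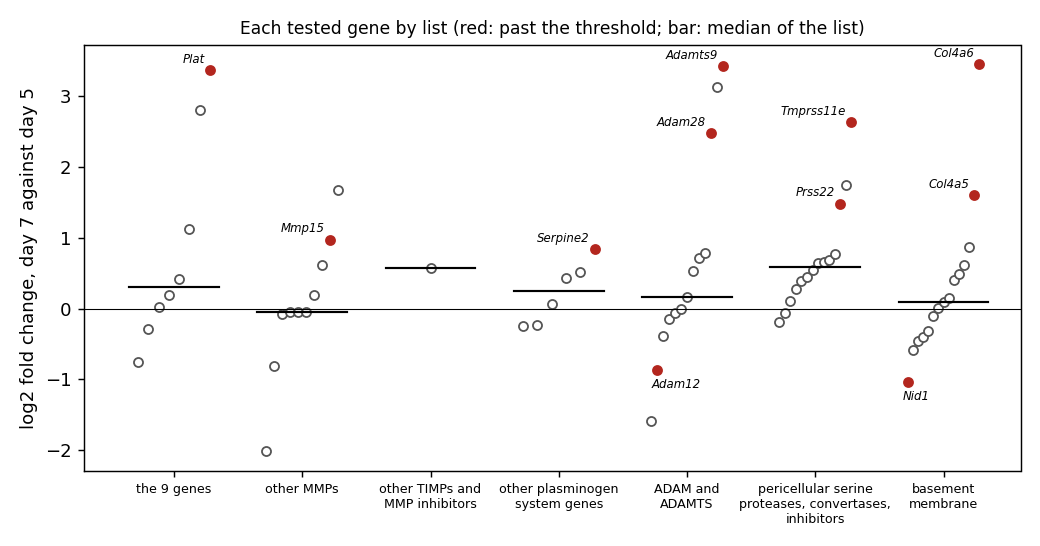
Log2 fold change at day 7 against day 5 (vertical axis) of every tested gene of the 9 genes and of the 6 related lists, with genes past the threshold in red and named and a bar at each list's median. List medians run from -0.05 for the other metalloproteinases to 0.59 for the pericellular serine proteases, and 1 of the 8 tested genes of the first column is past the threshold.

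Several of the 9 genes are also used by leukocytes, endothelium or fibroblasts, so their markers were summed. The 12 macrophage markers gave 8.03 to 10.7 CPM at day 5 and 9.30 to 13.9 CPM at day 7, and 8 of them, *Adgre1*, *Csf1r* and the C1q genes among them, were at 0 in all libraries. *Cd14*, the most counted of them, had 8.13 ± 1.03 CPM at day 5 and 5.65 ± 2.87 CPM at day 7. Its days overlapped (log2 change -0.48, edgeR adjusted p = 0.471), whereas *Cd68* rose from 1.00 ± 0.645 to 5.27 ± 1.97 CPM. The 8 neutrophil markers gave 0.412 to 2.51 and 4.90 to 13.4 CPM, nearly all in *Cxcr2*, which rose (log2 change 2.29), with *Mpo*, *Elane* and *Csf3r* at 0. The 10 endothelial markers gave 0.825 to 3.01 and 2.08 to 5.37 CPM, with *Cdh5* and *Tek* at 0. The 12 fibroblast markers gave 0.360 to 1.24 and 1.92 to 3.82 CPM, with *Col1a2*, *Col3a1*, *Lum* and *Dpt* at 0. The neutrophil sum, carried by *Cxcr2*, and the fibroblast sum were thus higher in all day 7 libraries, at levels comparable to those of *Plat* and *Mmp9*. All fibroblast markers together had 3, 2 and 1 counts at day 5 and 5, 11 and 7 at day 7 in mice 1, 2 and 3. The part of these sums in the values of *Plat* and *Mmp9* was not tested.

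The genes with the most similar pattern over the 6 libraries were found by the root mean square difference of centred log2 values among 8072 protein-coding genes. They were *Ahcyl1* for *Timp3* (0.045), *Lats1* for *Plau* (0.045), *Wdr6* for *Timp1* (0.068) and *Vps13d* for *Mmp14* (0.082), where the members' own spread was 0.25, 0.26, 0.44 and 0.32. They were the same with a pseudocount of 0.5 or 2 CPM. The 6 points of each pattern come from the same libraries, so that the likeness is a description.

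Over the last 500 bases of the coding transcripts of the 9 genes, the same strand was searched for matches to annotated transcripts of other genes. No match of at least 95% identity was found. Reads from outside these bases were not examined. On the opposite strand, *Mmp14*, *Plau* and *Timp3* share exonic bases with another annotated gene, *Syn3* in the case of *Timp3*. The strand setting of the counting was not given in the sources used here, so the share of such reads in these 3 genes is not known.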

How the data were processed

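RNA of mSGOs from 3 mice was counted at day 5 and day 7, in 6 libraries made with the Lexogen QuantSeq 3′ kit. The deposited files hold whole-number read counts per Ensembl gene ID, which the authors made by alignment to GRCm39 and did not normalise. The submitters' processing notes name edgeR. The aligner, annotation release and strand setting are not given in the sources used here. Entries that name no gene were left out.

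Names were taken from GENCODE vM39 by exact ID (43465 of 47643 IDs, 91.2%). A gene entered the test when 2 or more libraries held 1 count of it or more. Days were compared in edgeR 4.0.16 (R 4.3.3) by its quasi-likelihood F test, which is two-sided, with TMM scaling, day as the only term and Benjamini-Hochberg adjustment over all 15792 genes, after the thresholds in the study's methods. CPM are counts per 1000000 of the TMM-scaled library. SE and 95% intervals derive from the F statistic. Count ratios have exact binomial intervals, which cover counting error only.

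Alternatives were DESeq2 1.42.0, limma 3.58.1 (voom), other scalings and filters, robust = TRUE, glmTreat, the mouse as a block and leaving out each library. The scripts were tested on simulated data. Matching of 3′ ends used blastn 2.17.0. Same-numbered libraries come from the same mouse, per the labels. Their deviations from the day means correlated at 0.14, -0.10 and 0.16 over the 8172 genes whose mean reached 10 CPM.

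All 9 members are described whatever their values. From each related list the text names up to 3 genes past the threshold with the smallest p or, where fewer than 2 passed, up to 2 with the highest mean CPM, and for each member whose mean reached 10 CPM the gene of the most similar pattern. Other genes were named after their values were seen. The members and lists were chosen with earlier results of these data known. An item of the related lists is not reported here, and the counts of those lists leave it out.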

Additional observations from a re-analysis of the deposited data

How the results depend on the processing

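The count of members past the threshold, 1 of 8, was 2 with library totals only, 3 with no filter, 0 with filterByExpr (5 members tested, 2 with an unadjusted p under 0.05 by edgeR) and 2 with the mouse as a replicate block, and 0 to 3 without 1 library (0 without day 5 replicate 1, day 5 replicate 2 or day 7 replicate 2, and 3 without day 7 replicate 3). The count over all genes, 1901, was 622 with glmTreat, and 797 to 2576 without 1 library. The 10 related genes past the threshold became 6 with filterByExpr, 3 with glmTreat and 4 to 17 without 1 library. *Plau*, whose main value was 0.03, changed sign with upper quartile scaling (-0.014), library totals only (-0.062) and the replicate block (-0.0065), and ran from -0.093 to 0.22 without 1 library, and *Mmp14* ran from -0.084 to 0.41. *S100a10* changed sign with library totals only (-0.022). *Plat* stayed past the threshold in the 9 alternatives with all libraries that could test it. Among the members the replicate block changed the call of *Timp1* alone, and it ended that of *Adamts9*. The related genes past the threshold were 11 with this block. With all libraries, *Timp2* ranged from 0.48 to 0.58 and *Timp3* from 0.33 to 0.43. Depth limits *Mmp10* and *Mmp13*, with at most 2 and 1 counts in a library. The cause of these differences was not tested.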
